A study of Mus musculus with 92 samples.

Results

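The immediate early and dissociation genes described here are 9 genes, Fos, Fosb, Jun, Junb, Egr1, Atf3, Ier2, Dusp1 and Zfp36. They were chosen by name, as known early response genes, and each has an entry of its own among the 29956 named genes of the deposited table. They were followed in cells isolated from brain against cultured macrophages, and then in marrow cells, differentiating cells, Adar1 knockout cells and cells treated with a JAK inhibitor.

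Immediate early genes are transcribed within minutes of a stimulus by factors that the cell already holds, with no need for new protein. Growth factors, stress and MAP kinase signals reach their promoters through serum response factor and CREB-type factors, and the transcripts decay quickly. In microglia and other tissue cells the group is known for its induction while a tissue is taken apart and sorted, above all where warm enzymes are used.

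Bulk RNA was sequenced from mouse myeloid cells in 92 libraries of 25 groups. BM progenitors (lineage-negative cells) and BM monocytes came from the marrow of FVB WT mice, with 3 libraries each, and BMD macrophages were grown from FVB WT marrow for 7 days with M-CSF, with 3. Replicates 1 and 2 of the BMD macrophages have the column names Mac1 and Mac3, and replicate 3 is named differently, as wBM_1. ER-Hoxb8 cells are marrow progenitors of an FVB mouse heterozygous for Cas9, held immature in GM-CSF by an estradiol-driven Hoxb8, and were taken as progenitors, at day 4 and as macrophages at day 7 of M-CSF, with 3 libraries each. The transgene that holds the progenitors immature stays in the differentiated cells of this line, and every ER-Hoxb8 group carries it. BMD MLCs and ER-Hoxb8 MLCs (microglia-like cells, 6 libraries each) were bone marrow and ER-Hoxb8 cells injected into the brains of newborn Csf1r-/- FVB hosts, which lack microglia of their own, and taken back out. The column names split ER-Hoxb8 MLCs into 3 GFPHox and 3 WTHox libraries, and the WTHox names alone end in Lo. Titles of ER-Hoxb8 MLCs name no Cas9 mouse, unlike those of ER-Hoxb8 progenitors, day 4 cells and macrophages, so the donors may differ. Microglia (9 libraries, 7 named WT and 2 named YSWT) came from FVB WT mice that had no injection. NTC cells (non-targeting control) and Adar1 KO cells were Cas9 heterozygous ER-Hoxb8 lines transduced with a guide RNA. Adar1 KO sgRNA 1 and NTC cells were taken as progenitors and as macrophages after 7 days, with 3 libraries each. Adar1 KO sgRNA 2 cells gave 3 progenitor and 5 macrophage libraries. NTC and Adar1 KO sgRNA 1 macrophages were also grown for 7 days with baricitinib, a JAK inhibitor, at 0, 0.0006, 0.016, 0.4 or 10 uM, with 3 or 4 libraries each. These doses are those of the sample titles, and for the dose titled 0.016 uM the treatment protocol gives another value. The labels give no ages.

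Handling differed with the groups. Adherent macrophages were lysed in their dishes, whereas brains were perfused with cold buffer and homogenized in the cold without a warm enzyme step, and the cells were then separated on Percoll, stained at low temperature and sorted. Brain origin, isolation and sorting therefore cannot be told apart in any comparison of brain with culture, and injection cannot be told apart from these where MLCs are compared with culture. The study plots the brain libraries by sorter, harvest day and host sex, and reports no evidence of batch effects there. The labels do not give sorter, day or sex for each library.

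Values are TMM-normalized log2 CPM (a library's reads of a gene scaled to a common total, with an offset that keeps 0 defined), and a gene without reads takes the lowest value of its library. Libraries share a lowest value only where they were normalized together, and the 92 libraries fall into 6 such sets. Members were compared only within a set. Overlap between groups was read for the members, and the share of all genes without overlap was not counted. Estimated depth ran from 33.2 to 52.5 M reads (M for mega) in the 12 libraries of marrow cells, ER-Hoxb8 progenitors and day 4 cells, where the lowest value was -4.34. In the 27 libraries of cultured macrophages, MLCs and microglia, with a lowest value of -3.62, it ran from 16.7 to 35.8 M. The 11 NTC and sgRNA 1 libraries (lowest value -3.43) had 22.3 to 34.2 M and the 8 sgRNA 2 libraries (-3.56) had 17.2 to 28.5 M. NTC macrophages replicate 2 stood alone in a set with a lowest value of -3.09 and 20.1 M reads. The 33 baricitinib libraries (-2.78) were the shallowest, with 7.22 to 32.7 M. A floor of 3 reads corresponded to 0.0571 to 0.0905 CPM in the deepest set and to 0.0916 to 0.416 CPM in the baricitinib set, and such floors cover counting error only.

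The cell labels were checked against marker genes. P2ry12, the purinergic receptor that marks microglia, was at 14.03, 14.41 and 14.84 log2 CPM (lowest, median and highest) in microglia, 8.11, 10.72 and 11.39 in BMD MLCs and 4.76, 7.19 and 10.57 in ER-Hoxb8 MLCs. Sall1, the microglial transcription factor, was at 8.31, 8.60 and 8.91 in microglia but only at -1.26, -0.07 and 0.79 in BMD MLCs and at -0.38, 0.79 and 2.66 in ER-Hoxb8 MLCs. MLCs therefore lay below microglia for both markers in every library. Cultured macrophages had P2ry12 between -3.09 and 3.31 and carried high macrophage markers, led by the lysozyme gene Lyz2, with a summed level of 42082 to 69454 CPM. The label of the ER-Hoxb8 progenitors was borne out in replicate 3 alone, where 6 progenitor markers summed to 4444 CPM and 7 macrophage markers to 618 CPM. Replicate 1 had 361 CPM of progenitor and 15930 CPM of macrophage markers, and replicate 2 had 34.3 and 60115 CPM. Those libraries are called ER-Hoxb8 progenitors by their label throughout.

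Neutrophil markers moved with the brain groups. All 5 of 5 neutrophil markers tested (S100a8, S100a9, Ngp, Camp, Ltf) were DEGs higher in brain than in culture, where 21.5% of all genes tested were DEGs, a share to be held beside each count of markers below. Their summed level, led by Ngp, was 4431, 29821 and 32940 CPM (lowest, median, highest) in BMD MLCs, 237, 2052 and 41010 CPM in ER-Hoxb8 MLCs and 406, 1948 and 5846 CPM in microglia, against at most 37.8 CPM in cultured macrophages. Monocyte markers, led by F13a1, summed to 452 to 1423 CPM in BMD MLCs, 215 to 6563 CPM in ER-Hoxb8 MLCs and 16.5 to 105 CPM in microglia, and 2 of 3 were higher in brain. Border macrophage markers, led by Mrc1, summed to 1492 to 2252 CPM in BMD MLCs, 2.54 to 1002 CPM in ER-Hoxb8 MLCs and 9.93 to 101 CPM in microglia, and 1 of 4 was higher in brain. Microglia markers were higher for 7 of 7 and macrophage markers for 1 of 7 (with 1 lower), and progenitor markers held 0 DEGs of 5 by limma (1 at an unadjusted p below 0.05, against 60.1% of all genes tested). Of neuron markers 2 of 2 tested were higher and of astrocyte markers 2 of 4 (with 1 lower), and endothelial markers held 0 DEGs of 3 by limma (1 at an unadjusted p below 0.05). The summed neuron level was 145 CPM (Stmn2 foremost) in microglia replicate 8. In no other brain library did the neuron sum pass 14.8 CPM. Aqp4 of astrocytes stayed at 0 in microglia and BMD MLCs, and Cldn5 and Cdh5 of endothelium at 0 in BMD MLCs. Fewer cells of a kind and less RNA per cell cannot be told apart in bulk libraries, and the part of these other cells in the results was not tested.

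Promoters are shown for Fos, Atf3, Dusp1 and Zfp36, each of them a DEG in several of the comparisons below. RefSeq (build GRCm38.p6) gave the 250 bases before the start of 7 of the 9 members, with Egr1 and Ier2 missing from the table. The Fos window is chr12:85473640-85473889 on the plus strand, and those of Atf3, Dusp1 and Zfp36 are chr1:191183334-191183583, chr17:26508473-26508722 and chr7:28379229-28379478 on the minus strand. Capitals mark the cAMP response element (TGACGTCA) and its core (TGACG or CGTCA), the TATA box (TATAAA or TATATA) and the CArG box, the element of serum response factor.
Fos: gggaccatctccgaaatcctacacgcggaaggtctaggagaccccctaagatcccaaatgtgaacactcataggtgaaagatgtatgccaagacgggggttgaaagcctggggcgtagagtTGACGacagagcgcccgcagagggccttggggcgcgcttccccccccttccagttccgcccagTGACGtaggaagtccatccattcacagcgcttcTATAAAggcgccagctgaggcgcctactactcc
Atf3: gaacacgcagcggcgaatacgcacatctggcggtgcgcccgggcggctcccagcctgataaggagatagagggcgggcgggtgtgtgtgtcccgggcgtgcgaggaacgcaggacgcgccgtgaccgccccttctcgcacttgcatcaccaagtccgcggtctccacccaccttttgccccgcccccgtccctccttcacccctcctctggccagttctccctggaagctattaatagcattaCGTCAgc
Dusp1: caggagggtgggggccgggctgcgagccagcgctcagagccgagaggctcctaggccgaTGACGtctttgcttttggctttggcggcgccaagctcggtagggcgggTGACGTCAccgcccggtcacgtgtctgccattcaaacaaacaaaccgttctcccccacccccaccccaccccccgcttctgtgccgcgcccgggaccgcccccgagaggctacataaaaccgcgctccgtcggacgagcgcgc
Zfp36: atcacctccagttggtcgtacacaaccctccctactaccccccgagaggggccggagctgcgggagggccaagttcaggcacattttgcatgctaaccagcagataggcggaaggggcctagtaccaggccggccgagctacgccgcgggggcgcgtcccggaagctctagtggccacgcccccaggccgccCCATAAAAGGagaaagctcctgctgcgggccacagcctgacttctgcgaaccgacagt
Motifs were searched on both strands, except the TATA box, which was searched on the strand of the gene, and the core lies within the full cAMP response element. The core was found in 5 of 7 windows (Fos, Fosb, Junb, Atf3, Dusp1), against 17.8% of the 32851 promoter windows of that length, and in Fos it occurs at -129 to -125 and at -66 to -62 from the start. The full element was found in Dusp1 alone, at -143 to -136, and in 1.55% of all windows. Fos had a TATA box at -33 to -28 (11.5% of all windows) and Zfp36 a CArG box at -58 to -49 (1.47% of all windows). A GC box (GGGCGG or CCGCCC, not in capitals) was in 6 of 7 windows, all but Junb, against 32.7% of all, and in Dusp1 GC boxes flank the full element without overlap. An AP-1 site (TGACTCA or TGAGTCA) was in 0 of 7 windows against 4.46% of all, and an Egr site (GCGTGGGCG or its complement CGCCCACGC) in 0 of 7 against 0.536%. A match is a description, not a site or a cause.

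Fos, the leucine zipper partner of the AP-1 dimer, was the member that set microglia apart. Its level was 6.71, 4.88 and 6.32 log2 CPM in BMD macrophages (replicates 1 to 3) and 5.74, 4.82 and 4.99 in ER-Hoxb8 macrophages. The lowest, median and highest libraries were at 4.71, 5.71 and 6.99 in BMD MLCs, 5.41, 6.13 and 8.14 in ER-Hoxb8 MLCs and -0.75, 2.13 and 3.61 in microglia. Every microglia library lay below every MLC and every BMD macrophage library, while MLCs overlapped with cultured macrophages. Fosb, its close relative, was without reads in 26 of these 27 libraries. It reached 1.48 log2 CPM in BMD macrophages replicate 3 and did not pass the filter on low values.

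Jun and Junb complete the dimer. Jun was at 3.13, 4.17 and 3.57 in BMD macrophages and 3.32, 2.34 and 2.52 in ER-Hoxb8 macrophages. It ran over 2.49, 3.55 and 6.40 (lowest, median, highest) in BMD MLCs, 3.22, 4.09 and 4.66 in ER-Hoxb8 MLCs and 2.93, 3.28 and 6.16 in microglia. Single libraries set the tops of these ranges, BMD MLCs replicate 4 and microglia replicate 7. Junb was at 1.68, 4.76 and 5.81 in BMD macrophages and 3.38, 2.75 and 2.38 in ER-Hoxb8 macrophages, against medians of 4.83 in BMD MLCs, 4.30 in ER-Hoxb8 MLCs and 4.29 in microglia, and its groups overlapped in every comparison among these 27 libraries, as did those of Jun.

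Atf3, a stress-induced repressor of the ATF/CREB family that pairs with AP-1 proteins, was the member with the clearest gap. BMD macrophages had 7.28, 8.19 and 7.26 log2 CPM and ER-Hoxb8 macrophages 6.40, 6.60 and 7.82. BMD MLCs had 2.16, 2.60 and 3.47 (lowest, median, highest), ER-Hoxb8 MLCs 3.74, 5.04 and 6.85 and microglia 2.00, 3.67 and 4.36. The cultured cells were high and BMD MLCs and microglia low with no overlap, whereas ER-Hoxb8 MLCs replicate 6, at 6.85, reached into the range of the ER-Hoxb8 macrophages.

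Egr1, a zinc finger transcription factor, was scattered in every group. It was at 2.77, 1.95 and -1.36 in BMD macrophages and at 1.60, -2.56 and 1.51 in ER-Hoxb8 macrophages. BMD MLCs had -3.62, -1.64 and 0.15 (lowest, median, highest), ER-Hoxb8 MLCs -0.42, 2.33 and 3.08 and microglia 0.26, 1.20 and 2.95. All BMD MLCs lay below all microglia. Ier2, a nuclear protein of early growth responses, was at 1.39, 1.96 and 3.94 in BMD macrophages and 2.87, 1.98 and 1.43 in ER-Hoxb8 macrophages. It ran over 3.99, 5.34 and 7.20 in BMD MLCs, 3.53, 4.54 and 7.36 in ER-Hoxb8 MLCs and -1.95, 2.60 and 4.79 in microglia. Each kind of MLC thus lay above the cultured macrophages of its own source, by a narrow margin against BMD macrophages replicate 3.

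Dusp1 and Zfp36 are feedback genes of the group. Dusp1, the phosphatase that switches off MAP kinases, was at -1.33, -0.28 and -0.68 in BMD macrophages and -3.62, -1.65 and -0.94 in ER-Hoxb8 macrophages. Its spread was the widest of the members in these libraries, with -2.07, 1.93 and 6.43 (lowest, median, highest) in BMD MLCs, -3.62, 2.35 and 4.06 in ER-Hoxb8 MLCs and -3.62, -2.14 and 2.74 in microglia, where 3 libraries had no reads. Zfp36, which binds AU-rich stretches of messages and speeds their decay, was at 5.97, 5.51 and 5.82 in BMD macrophages and 4.53, 4.83 and 5.14 in ER-Hoxb8 macrophages. Its lowest, median and highest levels were 4.89, 6.17 and 6.65 in BMD MLCs, 5.29, 6.24 and 7.79 in ER-Hoxb8 MLCs and 1.62, 5.65 and 6.53 in microglia. For Zfp36, ER-Hoxb8 macrophages lay below ER-Hoxb8 MLCs and below BMD macrophages without overlap, and the other groups compared overlapped.

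**Figure D1:**
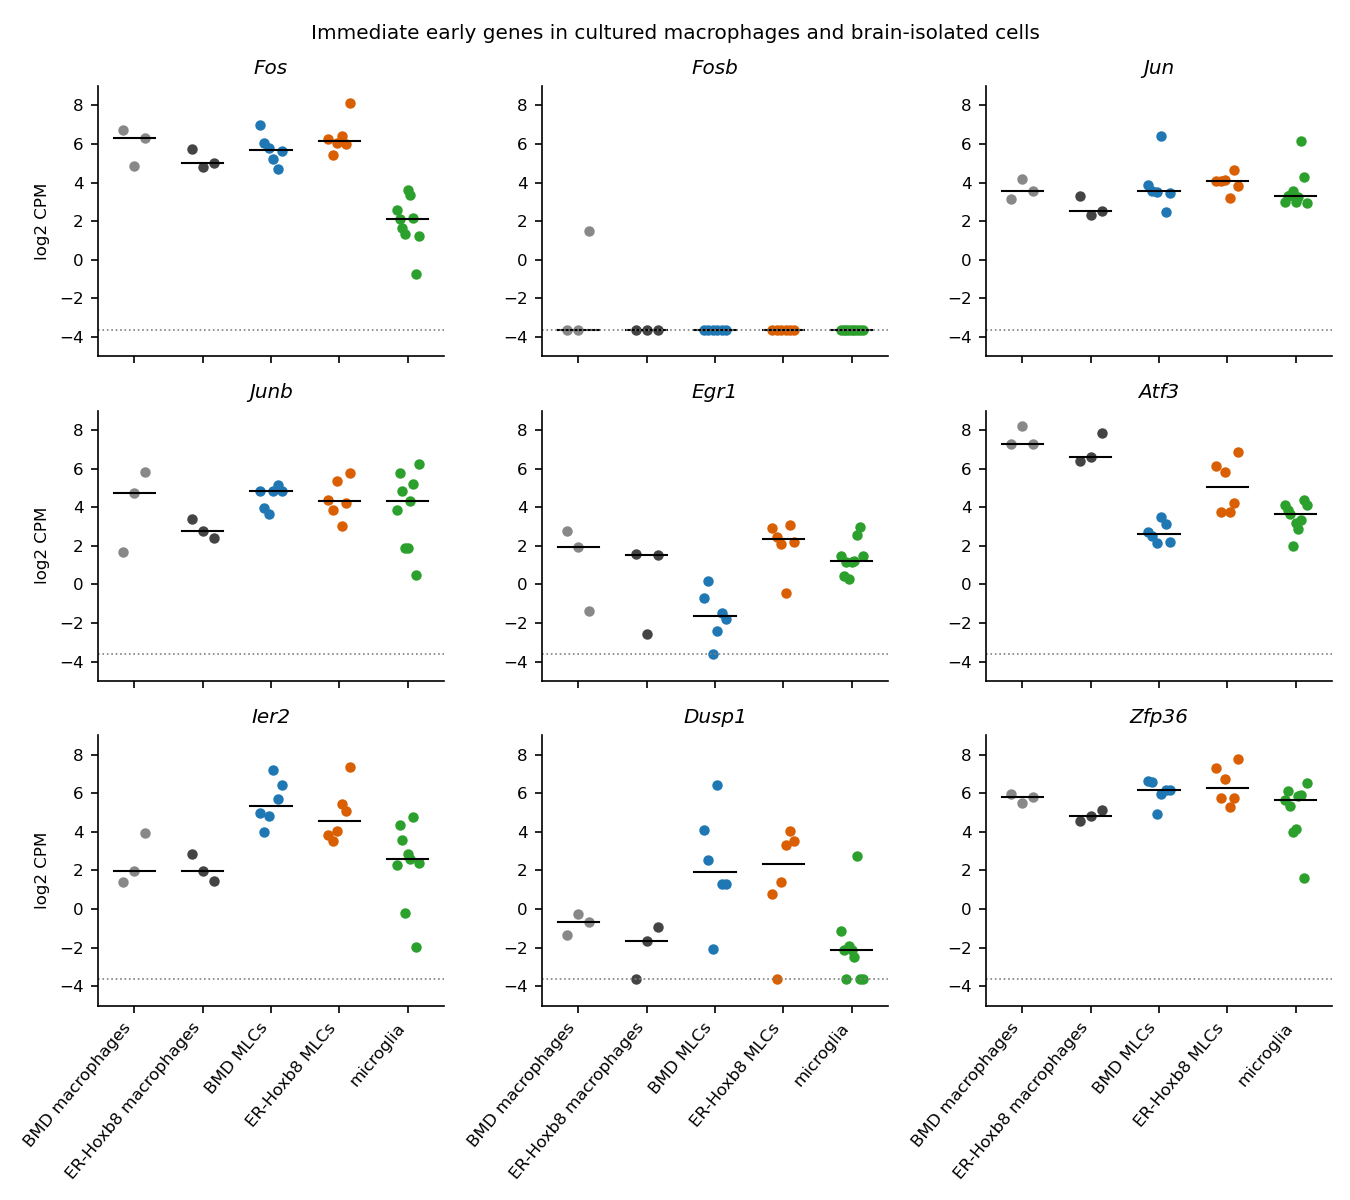
Level of each member in log2 CPM (vertical axis) in each of the 27 libraries of cultured macrophages, MLCs and microglia (points, grouped along the horizontal axis). Atf3 is at 6.40 or above in all 6 cultured libraries, and Fos is at 3.61 or below in all 9 microglia libraries.

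Brain groups together were set against both cultured groups to ask whether the group as a whole is higher after isolation from brain. It was not uniformly so. Of the 8 members tested, 1 was a DEG and it was lower (limma, two-sided, with a limit of 0.05 on the adjusted p and of 2 on the log2FC in either direction), against 21.5% DEGs among the 12518 genes tested. The members' median log2FC was 0.61, against -0.05 for all genes tested. Atf3 fell, with a log2FC of -3.50 ± 0.39 (SE) and an adjusted p of 5.88e-08. Ier2 passed the test for p with a log2FC of 1.97 ± 0.71 (adjusted p = 0.0219), just under the fold limit. Fos had a log2FC of -0.90 ± 0.45 and did not pass (adjusted p = 0.0945), nor did Jun, Junb, Egr1, Dusp1 and Zfp36. For every member the pooled brain libraries and the pooled cultured libraries overlapped. The Ier2 test was lost without BMD macrophages replicate 1 (log2FC 1.71, adjusted p = 0.0721), BMD macrophages replicate 2 (1.85, 0.0533) or ER-Hoxb8 macrophages replicate 3 (1.80, 0.0584), and its adjusted p ran from 6.09e-06 to 0.0721 over all alternatives. Fos passed without BMD macrophages replicate 2 (log2FC -1.17, adjusted p = 0.0473, range 0.00207 to 0.238). Without BMD macrophages replicate 3, ER-Hoxb8 macrophages replicate 1 or microglia replicate 8, Ier2 had a log2FC of 2.34, 2.16 or 2.14 and the count of DEGs was 2. For cells of the brain, p-values measure only the spread between these libraries. The study calls them biological replicates, and no label says which came from separate animals.

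Marrow cells taken back from brain were compared with marrow cells grown in culture. Of 8 members, 1 was higher and 2 were lower, against 15.9% DEGs among all genes tested, and the median log2FC was 0.28 against -0.01. Atf3 fell the most, with a log2FC of -4.88 ± 0.59 (adjusted p = 1.21e-06) and 6 of 6 BMD MLC libraries below all 3 BMD macrophage libraries. Ier2 rose, with a log2FC of 3.09 ± 1.08 (adjusted p = 0.0317) and no overlap. Egr1 fell, with a log2FC of -2.76 ± 0.97 (adjusted p = 0.0326), though BMD macrophages replicate 3 was as low as the BMD MLCs. On a scale of log2(CPM + 1) Egr1 had -1.47, under the fold limit, and it did not pass with no filter on low values (adjusted p = 0.0540) or with 3 brain libraries with high members left out (0.0669). Nor did Ier2 pass with no filter on low values (0.0531). Fos, Jun, Junb, Dusp1 and Zfp36 did not pass. Egr1 and Ier2 each rested on single cultured libraries. Without BMD macrophages replicate 1, Egr1 had a log2FC of -1.94 (adjusted p = 0.212) and Ier2 of 2.56 (0.146), and without replicate 2 they had -2.35 (0.130) and 2.85 (0.0999), so that the count was 1 in both cases. Their adjusted p ran from 1.77e-05 to 0.212 for Egr1 and from 5.64e-07 to 0.146 for Ier2 over the alternatives, and that of Atf3 from 4.49e-12 to 5.38e-05.

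ER-Hoxb8 cells were compared in the same way. Of 8 members, 1 was a DEG and it was higher, against 19.3% of all genes tested, with a median log2FC of 1.60 against -0.15. Ier2 rose by a log2FC of 2.78 ± 1.08 (adjusted p = 0.0472) with no overlap between 6 MLC and 3 macrophage libraries. That call was lost without any of the 3 ER-Hoxb8 macrophage libraries, with log2FC values of 3.17, 2.73 and 2.45 and adjusted p-values of 0.0690, 0.117 and 0.149 for replicates 1, 2 and 3 (range over alternatives 0.0191 to 0.315). It was also lost with GFPHox libraries only (1.71, 0.315) and with 3 brain libraries with high members left out (2.29, 0.0825). Atf3 fell by less than the fold limit, with a log2FC of -1.85 ± 0.59 (adjusted p = 0.0174), and did not pass without ER-Hoxb8 macrophages replicate 3 (-1.41, 0.119, range 0.00511 to 0.119). Without replicate 1 or 2 it was a DEG in place of Ier2, at -2.12 (0.0276) and -2.02 (0.0353). Egr1 had a log2FC of 1.87 and did not pass (adjusted p = 0.136), nor did Fos, Jun, Junb, Dusp1 and Zfp36. The size for Egr1 was unstable, with a log2FC from 0.4996 to 3.497 over the alternatives (adjusted p from 0.00454 to 0.749). Egr1 passed with library weights alone (3.497, adjusted p = 0.00454). Without ER-Hoxb8 macrophages replicate 3 the count was 0.

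Whether the shift from culture to brain differs between ER-Hoxb8 and BMD cells was tested directly, as the difference of the differences. Here 1 of 8 members passed, against 2.48% of all genes tested, with a median of 1.22 against -0.20. Atf3 passed with a difference of 3.03 ± 0.84 (adjusted p = 0.0430), and it lay lower in brain by more in BMD cells than in ER-Hoxb8 cells. The call was lost without BMD macrophages replicate 1 (3.18, adjusted p = 0.0746), 2 (2.72, 0.101) or 3 (3.19, 0.0786) and without ER-Hoxb8 macrophages replicate 1 (2.76, 0.113) or 2 (2.86, 0.109), with a range of 8.44e-05 to 0.113 over the alternatives. Egr1 differed by 4.64 ± 1.38 in the same test and did not pass (adjusted p = 0.0621), like Fos, Jun, Junb, Ier2, Dusp1 and Zfp36. It passed without BMD macrophages replicate 3 (5.88, adjusted p = 0.0208) or ER-Hoxb8 macrophages replicate 1 (5.34, 0.0481), with a range of 5.71e-05 to 0.247. Without BMD macrophages replicate 1 or 2 or ER-Hoxb8 macrophages replicate 2 the count was 0.

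Microglia, which never passed through culture, were compared with BMD macrophages. Of 8 members, 2 were DEGs and both were lower, against 23.4% of all genes tested, and the median log2FC was -0.51 against -0.06. Quantile normalization moved the median of all genes from -0.06 to 0.08. Fos fell by a log2FC of -4.04 ± 0.65 (adjusted p = 2.17e-05) and Atf3 by -4.08 ± 0.56 (adjusted p = 2.19e-06). For both, 9 of 9 microglia libraries lay below all 3 BMD macrophage libraries. Jun, Junb, Egr1, Ier2, Dusp1 and Zfp36 did not pass.

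**Figure D2:**
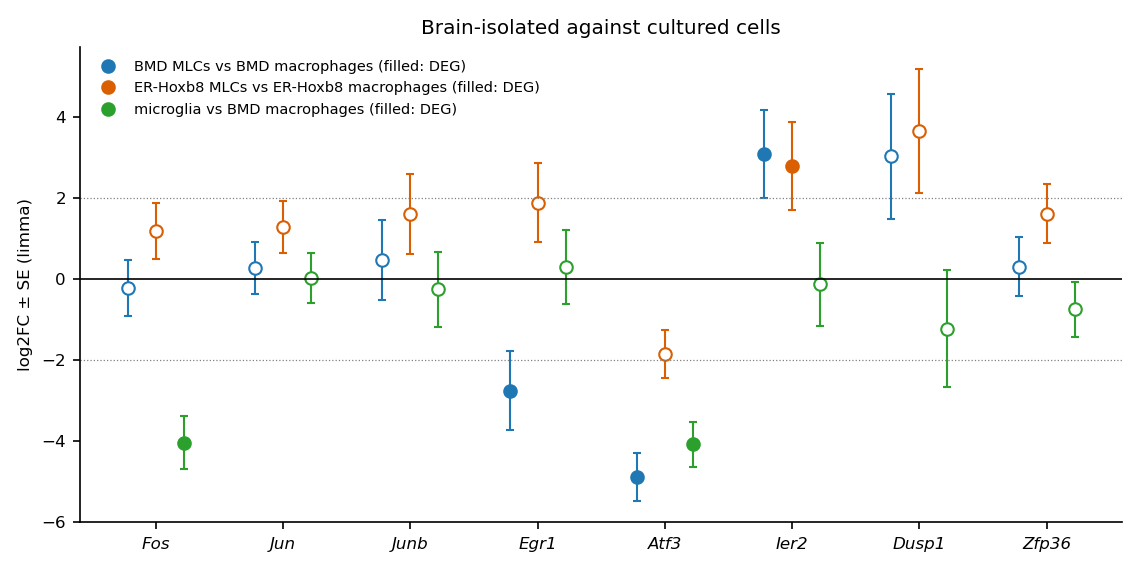
log2FC of each member tested (points, with SE as bars, filled for DEGs) for BMD MLCs, ER-Hoxb8 MLCs and microglia against cultured macrophages. Atf3 lies at -4.88 for BMD MLCs, -1.85 for ER-Hoxb8 MLCs and -4.08 for microglia, and Fos at -4.04 for microglia.

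Among cells isolated from brain, MLCs carried more of several members than microglia. MLCs came from injected Csf1r-/- hosts and microglia from WT mice without injection. Cell origin, injection and host genotype therefore cannot be told apart in comparisons of MLCs with microglia. In BMD MLCs against microglia, 3 of 8 members were higher and 1 was lower, against 10.7% of all genes tested, and the median log2FC was 0.89 against 0.06. Fos had a log2FC of 3.81 ± 0.51 (adjusted p = 3.03e-06), higher in 6 of 6 BMD MLC libraries than in any microglia library. Dusp1 rose by 4.25 ± 1.15 (adjusted p = 0.00802) and Ier2 by 3.22 ± 0.81 (adjusted p = 0.00435), each with overlap. Egr1 fell, with a log2FC of -3.05 ± 0.73 (adjusted p = 0.00281) and no overlap. On a scale of log2(CPM + 1) it had -1.48, under the fold limit. Jun, Junb, Atf3 and Zfp36 did not pass.

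ER-Hoxb8 MLCs were compared with the same 9 microglia libraries, so that these comparisons share them. Here 3 of 8 members were DEGs, each of them higher, against 16.3% of all genes tested, with a median of 1.50 against -0.10. Fos was higher by 4.45 ± 0.51 (adjusted p = 1.18e-07) with no overlap, Dusp1 by 3.57 ± 1.15 (adjusted p = 0.0169) and Ier2 by 2.58 ± 0.81 (adjusted p = 0.0139). Dusp1 and Ier2 did not pass with library weights (2.55, adjusted p = 0.181, and 1.25, 0.204) or with GFPHox libraries only (1.51, 0.474, and 1.51, 0.296), and on a scale of log2(CPM + 1) Dusp1 had 1.94. Without YSWT libraries Ier2 had 1.99, under the fold limit. Atf3 passed the test for p with a log2FC of 1.59 ± 0.44 (adjusted p = 0.00607), as did Zfp36 with 1.42 ± 0.54 (adjusted p = 0.0431). Zfp36 no longer passed in 6 of 12 alternatives (range 0.00979 to 0.179). One left out microglia replicate 8, the library with the highest neuron sum (0.99, adjusted p = 0.0502). The others were no filter on low values (0.0709), a fit of these groups alone (0.116), GFPHox (0.0888) or WTHox (0.179) libraries only and 3 brain libraries left out (0.113). Jun, Junb and Egr1 did not pass. The kinds of MLC were also set against each other, where 2 of 8 members were DEGs, both higher in ER-Hoxb8 MLCs, against 6.56% of all genes tested, with a median of 0.24 against -0.22. Atf3 was higher by 2.39 ± 0.48 (adjusted p = 0.00118) with every ER-Hoxb8 MLC library above every BMD MLC library, and Egr1 by 3.70 ± 0.80 (adjusted p = 0.00219) with overlap. Fos, Jun, Junb, Ier2, Dusp1 and Zfp36 did not pass there.

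Cultured macrophages of both sources were compared in a fit of their own. Fosb and Dusp1 did not pass the filter on low values there. Of the 7 members tested (Fos, Jun, Junb, Egr1, Atf3, Ier2, Zfp36), 0 were DEGs by limma, against 1.47% of 10764 genes, and 1 of 7 had an unadjusted p below 0.05, against 12.3% of all. The median log2FC of ER-Hoxb8 against BMD macrophages was -0.89 against 0.02 for all genes tested. Zfp36 alone was lower in all 3 ER-Hoxb8 macrophage libraries than in any BMD macrophage library.

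Other genes of the early response were followed in lists drawn up by role, and their counts in brain against culture stand beside the 21.5% DEGs among all genes tested. Of 5 other AP-1 genes tested from brain and culture, 1 was higher, Batf3, with a log2FC of 5.01 ± 0.41 (adjusted p = 2.40e-10). Its level was between -2.75 and -0.57 log2 CPM in cultured macrophages and 0.96 or more in every brain library. Of 2 Egr and Nr4a genes tested, 1 was lower, Egr2, with -3.10 ± 1.03 (adjusted p = 0.0134), which did not pass without BMD macrophages replicate 1 (-2.54, adjusted p = 0.0610) or 2 (-2.55, 0.0592, range 1.60e-06 to 0.103). Among 16 other immediate early genes 1 was higher and 2 were lower, with a median of 0.17. Plk2, a kinase of the early stress response, fell by -7.26 ± 0.91 (adjusted p = 3.87e-07), from 6.03 or more in cultured macrophages to at most 5.30 in brain cells. Gadd45b, a stress sensor, fell by -2.42 ± 0.74 (adjusted p = 0.00784), with -1.88 (0.0474) without ER-Hoxb8 macrophages replicate 3, and Klf4 rose by 2.14 ± 0.83 (adjusted p = 0.0321). Klf4 did not pass without BMD macrophages replicate 1 (2.11, adjusted p = 0.0612), 2 (2.10, 0.0603) or 3 (2.20, 0.0517) or ER-Hoxb8 macrophages replicate 1 (1.59, 0.138), with a range of 0.00212 to 0.138. On a scale of log2(CPM + 1) Gadd45b had -1.63 and Klf4 1.73, and neither was a DEG.

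Of 11 feedback regulators tested, 2 were higher and 2 lower in brain, with a median of 1.34. Socs3, which dampens cytokine receptor signals, rose by 3.46 ± 0.64 (adjusted p = 7.31e-05), and Nfkbiz, an inhibitor-like partner of NF-kB, by 2.51 ± 0.27 (adjusted p = 3.79e-08). Dusp5 fell by -2.46 ± 0.61 (adjusted p = 0.00149) and Spry2 by -2.33 ± 0.49 (adjusted p = 0.000344), both restraints on ERK signals. On a scale of log2(CPM + 1) these had -0.98 and -1.84 and were not DEGs. Heat shock genes, which mark warm stress, had 0 DEGs of 8 tested by limma in brain against culture (2 at an unadjusted p below 0.05, against 60.1% of all genes tested) and a median of 0.13. These 2 also passed the test for the adjusted p, Hspd1 lower and Hsp90aa1 higher in brain. Against microglia 2 of 8 were higher in BMD MLCs (10.7% of all genes tested) and the same 2 in ER-Hoxb8 MLCs (16.3%), Hspa1a and Hspa1b. These heat shock genes were named after their values had been seen. Hspa1b had a log2FC of 3.24 ± 0.87 (adjusted p = 0.00751) and 4.24 ± 0.87 (adjusted p = 0.000360), and Hspa1a of 3.14 ± 1.13 (adjusted p = 0.0498) and 3.81 ± 1.13 (adjusted p = 0.00997). Hspa1a in BMD MLCs did not pass without microglia replicate 8 (2.90, adjusted p = 0.0741, range 0.00105 to 0.114), and on a scale of log2(CPM + 1) Hspa1a and Hspa1b there had 1.92 and 1.54. Of 12 MAP kinase and SRF genes 1 was lower, Mapk3 (ERK1), with -2.71 ± 0.56 (adjusted p = 0.000253). Of 7 cytokine genes known to be induced in microglia out of the body, 2 were higher and 2 lower. Il1b rose by 5.71 ± 0.49 (adjusted p = 6.19e-10) and Cxcl10 by 3.88 ± 0.51 (adjusted p = 7.63e-07), while Ccl3 fell by -2.29 ± 0.39 (adjusted p = 2.87e-05, with -1.94 without ER-Hoxb8 macrophages replicate 3) and Ccl4 by -2.33 ± 0.49 (adjusted p = 0.000298, with -1.81 with library weights). Il1b had at most -1.04 log2 CPM in cultured macrophages and at least 0.27 in every brain library. Cxcl10 was high in a single brain group, at 6.13 to 9.53 in ER-Hoxb8 MLCs against at most 0.92 in microglia and 0.57 in BMD MLCs. The fall of Ccl4 was not shared by ER-Hoxb8 MLCs, which were at 4.09 to 9.65 against 5.96 to 7.93 in ER-Hoxb8 macrophages, while BMD MLCs were at 2.33 to 3.84 and microglia at 2.85 to 4.86 against 6.68 to 7.67 in BMD macrophages. The shift of Ccl4 differed between ER-Hoxb8 and BMD cells by 4.18 ± 1.05 (adjusted p = 0.0235), a test singled out after the values had been seen. It did not pass without BMD macrophages replicate 3 (3.88, adjusted p = 0.0893) or ER-Hoxb8 macrophages replicate 2 (3.66, 0.0901) or 3 (4.23, 0.0546), with a range of 5.75e-05 to 0.0901.

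The genes most like the members over the 27 libraries were ranked by Pearson r with the mean z-score of the 8 members tested. The 10 highest were Gm8909 (0.87), H2-Bl (0.82), H2-Q1 (0.81), H2-D1 (0.81), Lrrc8c (0.81), Irf7 (0.78), Nt5c3 (0.78), H2-Q2 (0.77), Trim14 (0.77) and Nuak2 (0.77). Gm8909, H2-Bl, H2-Q1, H2-D1 and H2-Q2 are MHC class I genes with near-identical copies, so that reads may be split among them and their values are uncertain. This ranking is a description over libraries that share groups and sequencing depth.

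Replicates of one group differed more for most members than for the median gene, with Fos the exception in 2 fits. The members' median within-group SD was 1.25 in the cultured and brain libraries against 0.84 for all genes tested. It was 2.04 against 0.52 in marrow and ER-Hoxb8 progenitor libraries, 0.88 against 0.22 in NTC and sgRNA 1 libraries, 0.37 against 0.15 in sgRNA 2 libraries and 0.54 against 0.28 in baricitinib libraries. Fos was at the 40.2nd percentile of within-group SD in sgRNA 2 libraries and at the 21.6th in baricitinib libraries. Members above the 90th percentile of all genes tested numbered 1 of 8 (Dusp1), 6 of 9, 6 of 7, 4 of 8 and 3 of 8 in these fits. Single libraries were low or high for several members at once. Replicate 1 was the lowest of its group for 8 of 8 members in BM progenitors (Fosb had no reads there), for 8 of 9 in BM monocytes (all but Atf3), for 7 in NTC progenitors and for 7 in sgRNA 1 progenitors. In brain, ER-Hoxb8 MLCs replicate 6 was highest for Fos, Junb, Atf3, Ier2 and Zfp36, BMD MLCs replicate 4 for Jun, Atf3, Ier2 and Dusp1, and microglia replicate 7 for Jun, Ier2 and Dusp1. BMD MLCs replicate 3 was lowest for Junb, Egr1, Atf3, Dusp1 and Zfp36, ER-Hoxb8 MLCs replicate 2 for Fos, Atf3, Ier2 and Dusp1 and replicate 4 for Jun, Junb, Egr1 and Zfp36. Microglia replicate 8 was lowest for Fos, Junb, Ier2 and Zfp36 and highest for Egr1 and Atf3, and it had reads for 12900 genes, the fewest of the 27 libraries.

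**Figure D3:**
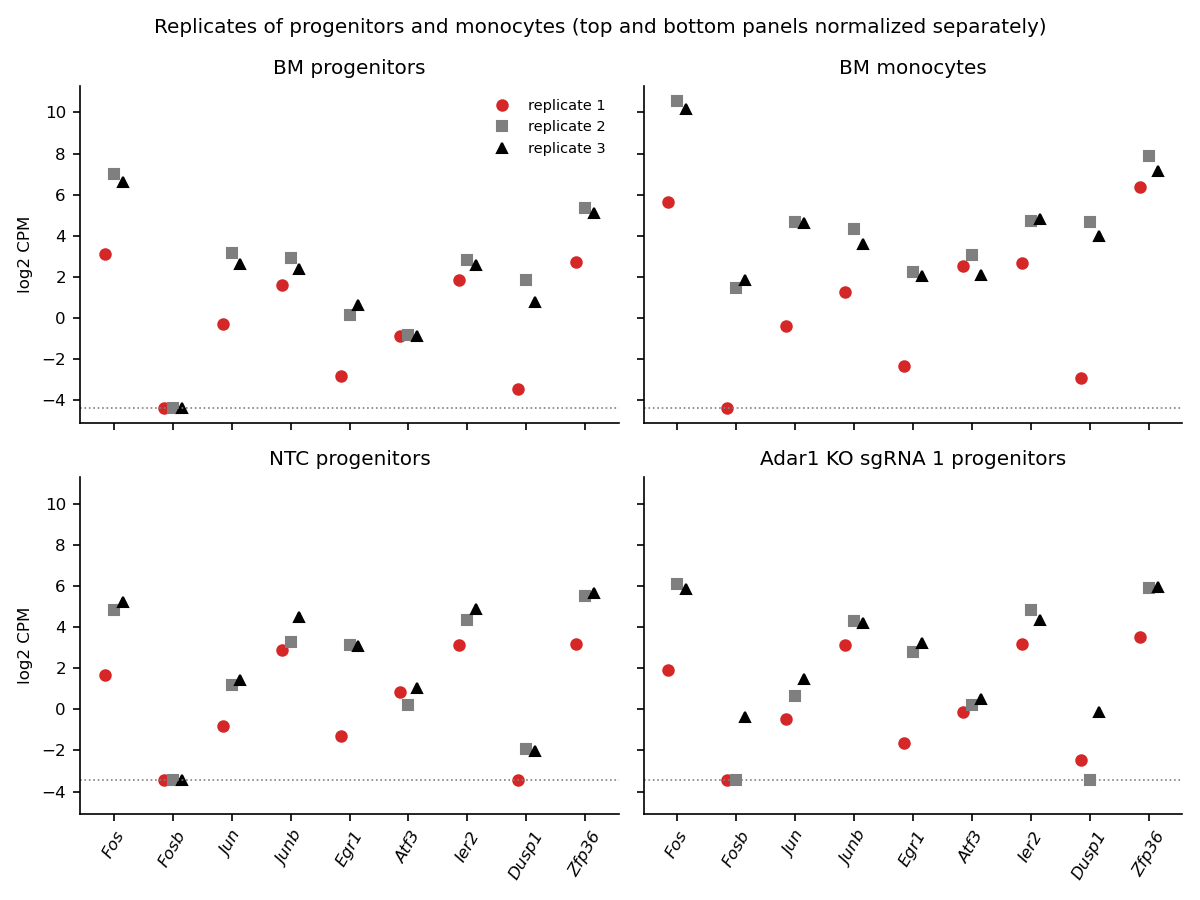
Level of each member in log2 CPM (vertical axis) by replicate (symbols) in BM progenitors, BM monocytes, NTC progenitors and Adar1 KO sgRNA 1 progenitors. In BM monocytes replicate 1 had 5.63 log2 CPM of Fos against 10.54 and 10.15 in replicates 2 and 3.

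Marrow cells came by magnetic separation and were never cultured. Fos was at 3.12, 7.01 and 6.63 log2 CPM in BM progenitors (replicates 1 to 3) and at 5.63, 10.54 and 10.15 in BM monocytes. Zfp36 was at 2.75, 5.37 and 5.09 in progenitors and 6.36, 7.90 and 7.15 in monocytes. Atf3 was at -0.88, -0.83 and -0.86 in progenitors and 2.53, 3.05 and 2.10 in monocytes. Zfp36 and Atf3 were higher in every monocyte library than in any progenitor library, while Fos overlapped through replicate 1. Dusp1 showed the same low replicate, at -3.45, 1.85 and 0.77 in progenitors and -2.91, 4.68 and 3.99 in monocytes. Jun was at -0.26, 3.17 and 2.65 in progenitors and -0.36, 4.66 and 4.65 in monocytes. Fosb had no reads in progenitors and was at -4.34, 1.45 and 1.88 in monocytes. The neutrophil markers followed replicate 1 too, with 288 CPM in BM progenitors replicate 1 against 9688 and 4268 CPM, and 479 CPM in BM monocytes replicate 1 against 9079 and 4075 CPM, and their part in the members' levels was not tested.

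In the fit of these groups with ER-Hoxb8 progenitors and day 4 cells, 0 of 9 members were DEGs between BM monocytes and BM progenitors by limma, against 6.84% of 12056 genes tested, though 4 of 9 had an unadjusted p below 0.05, against 30.3% of all. The median log2FC was 2.20 (1.93 without Fosb, which has no reads in progenitors) against -0.09. Zfp36 had a log2FC of 2.73 ± 0.83 (adjusted p = 0.0505), Atf3 of 3.42 ± 1.12 (adjusted p = 0.0635) and Fos of 3.19 (adjusted p = 0.230). The Fos log2FC ran from 1.95 to 4.76 over the alternatives (adjusted p from 0.0489 to 0.581). Ier2 had 1.66 (adjusted p = 0.0730). Without BM monocytes replicate 1 the count was 2, with Ier2 at 2.35 (adjusted p = 0.0156, range 0.00490 to 0.250) and Fosb, whose progenitors had no reads, while Zfp36 and Atf3 did not pass there either. In a fit of monocytes and progenitors alone the count was 2, with Atf3 (adjusted p = 0.000877) and Zfp36 (0.0153). Over the alternatives the adjusted p ran from 0.00243 to 0.224 for Zfp36 and from 9.48e-05 to 0.302 for Atf3.

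ER-Hoxb8 progenitors were widely scattered for Fos, Atf3 and Egr1. Fos was at 8.79, 5.54 and 1.89, Atf3 at 5.30, 6.28 and 0.62, and Egr1 at 5.19, -2.20 and 0.92 in replicates 1 to 3. Replicate 3, the one with progenitor markers, was lowest for 6 members (Fos, Jun, Junb, Atf3, Dusp1, Zfp36). Against BM progenitors, 1 of 9 members was a DEG, against 15.3% of all genes tested, with a median of 0.72 (0.53 without Fosb) against -0.08. Atf3 was higher by 4.93 ± 1.12 (adjusted p = 0.00717) in 3 of 3 libraries, with replicate 3 nearest to BM progenitors. It did not pass in a fit of these groups alone (adjusted p = 0.0532, range 6.77e-06 to 0.0532), and the other members (Fos, Fosb, Jun, Junb, Egr1, Ier2, Dusp1, Zfp36) did not pass. At day 4 of M-CSF, Fos stood at 5.95, 5.61 and 6.86, Atf3 at 6.34, 6.15 and 4.72 and Jun at 3.29, 2.21 and 2.54. Jun alone lay above all progenitor libraries (1.52, 1.94 and -1.93). By limma 0 of 9 members were DEGs at day 4, against 0% of all genes tested, and 0 of 9 had an unadjusted p below 0.05, against 9.36%. The median log2FC was -0.41 (-0.39 without Fosb) against -0.01. ER-Hoxb8 progenitors replicates 1 and 2 carried high macrophage and low progenitor markers. The day 4 comparison therefore cannot show how the members change as progenitors differentiate, and the same libraries entered the comparison with BM progenitors.

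In the Adar1 design the target itself was read first. Adar was at 4.20, 3.42 and 4.28 log2 CPM in NTC progenitors and 4.36, 4.23 and 4.24 in sgRNA 1 progenitors, at 5.73, 5.86 and 5.67 in NTC macrophages and at 6.96, 7.15 and 7.01 in sgRNA 1 macrophages. It was at 4.35, 4.56 and 4.36 in sgRNA 2 progenitors and at 7.02, 7.00, 7.02, 7.03 and 6.99 in sgRNA 2 macrophages. The sgRNA 1 libraries overlapped with NTC in progenitors and lay above NTC replicates 1 and 3 in macrophages, while the sgRNA 2 libraries have no control in their own set. The RNA level does not check a knockout made by a guide, which can leave the message in place. Progenitor and macrophage markers fitted the labels, with progenitor markers (Mpo foremost) at 4079 CPM or more in every progenitor library of these lines and at most 12.2 CPM in the macrophages.

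The knockout was compared with NTC to ask whether loss of Adar1 goes with an early response. In progenitors Fos was at 1.65, 4.85 and 5.22 in NTC and 1.89, 6.08 and 5.85 in Adar1 KO sgRNA 1, and Egr1 at -1.29, 3.11 and 3.06 against -1.63, 2.80 and 3.21. Replicate 1 was low in both lines and the groups overlapped for all members. Replicate numbers paired these groups (r 0.158 to 0.349). Within pairs Fos was higher in the knockout each time, while Egr1 went both ways. With a replicate block 0 members were DEGs. Fosb and Dusp1 did not pass the filter on low values in these lines. Of the other 7 members (Fos, Jun, Junb, Egr1, Atf3, Ier2, Zfp36), 0 were DEGs by limma, against 0.254% of 11008 genes tested, and 0 of 7 had an unadjusted p below 0.05, against 6.59%. The median log2FC was 0.01 against -0.01.

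In macrophages Atf3 was at 7.08, 7.76 and 8.15 in NTC and 8.19, 8.94 and 8.63 in sgRNA 1. NTC replicate 2 was normalized apart and left out of the tests, so that NTC macrophages entered with 2 libraries. Of 7 members 0 were DEGs by limma, against 4.02% of all genes tested, and 1 of 7 had an unadjusted p below 0.05, against 35.8%. The median was 0.49 against 0.05. Atf3 had a log2FC of 0.97 ± 0.35 (adjusted p = 0.0668). Without NTC macrophages replicate 3 it had 1.51, and its log2FC ran from 0.44 to 1.51 over all alternatives. Leaving out replicate 1 or 3 left a single library in the NTC arm, which was assumed to vary like the others. Those fits give a size only. Atf3 passed the test for p on a scale of log2(CPM + 1) (0.97, adjusted p = 0.0368), with library weights (1.19, 0.0154) and with a replicate block (0.99, 0.0423), each time under the fold limit.

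Differentiation of the lines from progenitors to macrophages was where Atf3 moved most. NTC progenitors had 0.84, 0.22 and 1.01 log2 CPM of Atf3 and sgRNA 1 progenitors -0.14, 0.21 and 0.48, against 7.08 to 8.94 in the macrophages of both lines. sgRNA 2 progenitors had 1.56, 1.85 and 2.02 and sgRNA 2 macrophages 8.49, 8.52, 8.55, 8.69 and 8.49. No progenitor library of these lines came near a macrophage library. Jun was at -0.79, 1.18 and 1.40 in NTC progenitors and 2.48 and 2.95 in NTC macrophages replicates 1 and 3, and at -0.45, 0.66 and 1.45 in sgRNA 1 progenitors against 3.12, 3.16 and 3.32 in sgRNA 1 macrophages. Fos was at 6.59 and 7.13 in the NTC macrophages tested and at 6.06, 7.03 and 7.39 in sgRNA 1 macrophages, whose progenitors reached 6.08.

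In NTC cells 3 of 7 members were DEGs, each of them higher, against 23.5% of all genes tested, with a median of 1.85 against -0.08. Atf3 rose by 6.92 ± 0.35 (adjusted p = 9.36e-09), Jun by 2.12 ± 0.63 (adjusted p = 0.0103) and Fos by 2.96 ± 1.22 (adjusted p = 0.0471). Zfp36 passed the test for p at 1.85 ± 0.77 (adjusted p = 0.0488) and Ier2 at -1.27 ± 0.50 (adjusted p = 0.0393), below the fold limit, while Junb and Egr1 did not pass. Fos was lost without NTC progenitors replicate 1 (1.83, adjusted p = 0.164), with no filter on low values (2.96, 0.105) and with library weights (2.95, 0.0776), with a range of 0.00217 to 0.164. Without NTC macrophages replicate 1 or 3 Fos had 3.22 or 2.69. Jun was lost without NTC macrophages replicate 3 (1.88, adjusted p = 0.0629, range 0.00227 to 0.0629), where the count was 1, and lay under the fold limit without NTC progenitors replicate 1 (1.42, 0.0231). Zfp36 did not pass without NTC progenitors replicate 1 (1.05, adjusted p = 0.166, range 0.000639 to 0.166), with no filter on low values (0.107) or with library weights (0.0735). Without NTC progenitors replicate 2 (2.21, 0.0395) or 3 (2.29, 0.0302) Zfp36 was a DEG. Without NTC macrophages replicate 1 or 3 it had 1.94 or 1.76. Ier2 did not pass without NTC progenitors replicate 2 (0.0965) or 3 (0.137) or NTC macrophages replicate 1 (0.106) or 3 (0.113), with a range of 0.000257 to 0.137. As NTC macrophages entered with 2 libraries, leaving out replicate 1 or 3 left a single library in that arm, whose spread was then taken from the other groups, so that these fits do not test how far NTC macrophages vary.

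In sgRNA 1 cells 2 of 7 members were DEGs, both higher, against 21.6% of all genes tested, with a median of 0.74 against -0.06. Atf3 rose by 8.40 ± 0.31 (adjusted p = 8.98e-10) and Jun by 2.65 ± 0.57 (adjusted p = 0.00128). Ier2 fell by less than the fold limit, with -1.48 ± 0.45 (adjusted p = 0.0112), and did not pass without sgRNA 1 progenitors replicate 2 (-1.13, adjusted p = 0.0543, range 7.31e-05 to 0.0543), and Fos, Junb, Egr1 and Zfp36 did not pass. In sgRNA 2 cells, where replicates were tight, 4 of 8 were DEGs, each of them higher, against 19.3% of all genes tested, with a median of 2.28 against -0.03. Fos went from 3.08, 2.83 and 2.73 to 6.23, 6.31, 6.31, 6.29 and 6.41, a log2FC of 3.43 ± 0.09 (adjusted p = 9.66e-11). Jun rose by 3.69 ± 0.18 (adjusted p = 1.66e-08), Atf3 by 6.74 ± 0.10 (adjusted p = 2.09e-12) and Dusp1 by 3.78 ± 0.58 (adjusted p = 0.000150), with 1.94 and thus under the fold limit for Dusp1 on a scale of log2(CPM + 1). Junb rose by 1.13 ± 0.26 (adjusted p = 0.00250) and Zfp36 by 0.83 ± 0.11 (adjusted p = 3.69e-05), both without overlap, while Egr1 and Ier2 did not pass. Whether these rises differ between the lines was not tested.

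**Figure D4:**
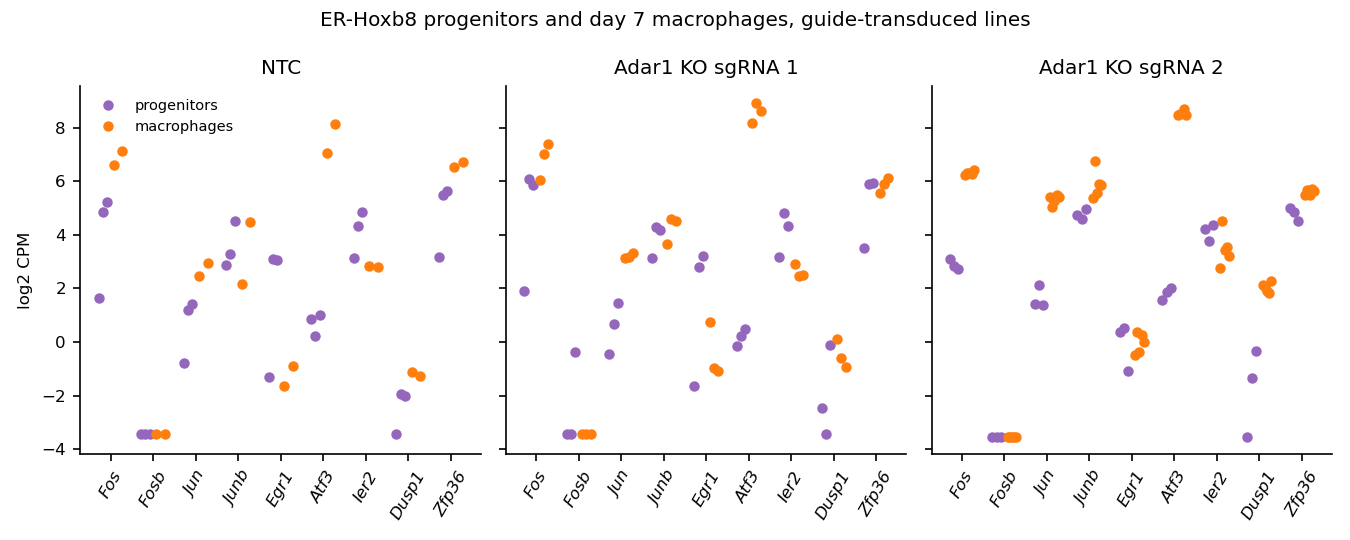
Level of members in log2 CPM (vertical axis) in progenitor and macrophage libraries of the NTC, Adar1 KO sgRNA 1 and Adar1 KO sgRNA 2 lines (points), without NTC macrophages replicate 2, which was normalized apart. The sgRNA 2 libraries were normalized apart from the other 2 lines. Atf3 is at 2.02 or below in the progenitor libraries and at 7.08 or above in the macrophage libraries.

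Baricitinib was given to ask what follows when JAK signalling is blocked. Adar was at 5.12, 4.94 and 4.69 log2 CPM in NTC and 7.42, 6.52 and 6.37 in Adar1 KO macrophages without drug, and at 3.70, 3.64 and 3.22 against 1.55, 2.15, 2.91 and 2.03 with 10 uM. At 0.0006 uM it was at 4.66, 5.04 and 4.81 against 5.90, 5.94 and 6.21, and at 0.016 uM at 4.31, 4.58, 4.40 and 4.34 against 6.25, 5.90 and 6.37. NTC macrophages at 0.4 uM had 4.50, 4.22, 4.29 and 3.92. Adar was thus higher in every knockout library at 0, 0.0006 and 0.016 uM and lower in all 4 at 10 uM. In Adar1 KO macrophages at 0.4 uM it was at 4.12, 7.38 and 4.21, so that replicate 2 stood apart from its group. The same library had 7.85 log2 CPM of Atf3 against 4.50 and 4.77 in replicates 1 and 3, and 8.28 of Zfp36 against 5.89 and 5.95. Its endothelial marker sum, led by Flt1, was 237 CPM against 73.5 and 68.5 CPM, and its neutrophil sum 76.1 CPM against 245 and 325 CPM. All baricitinib groups were tested in a single fit with a common spread. This library therefore entered the spread of every main test of these groups below.

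Without drug, Fos was at 8.46, 8.41 and 8.55 log2 CPM in NTC and 7.39, 7.61 and 7.68 in Adar1 KO macrophages. Egr1 was at 1.17, 1.78 and 1.72 against -0.09, 0.21 and -0.21. Zfp36 was at 6.31, 6.54 and 6.55 against 6.19, 6.01 and 6.07. Fos, Egr1 and Zfp36 were lower in every knockout library and Atf3, at 7.81, 7.38 and 7.33 against 6.73, 6.40 and 6.70, was higher in every one. The share of all genes that separate so was not counted. Of 8 members, 0 were DEGs by limma, against 3.87% of 11152 genes tested, and 2 of 8 had an unadjusted p below 0.05, against 36.7%. The median was -0.49 against -0.02. Fos fell by less than the fold limit, with a log2FC of -0.91 ± 0.14 (adjusted p = 2.29e-05), as did Egr1 with -1.59 ± 0.30 (adjusted p = 0.000229). Jun, Junb, Atf3, Ier2, Dusp1 and Zfp36 did not pass.

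At 0.0006 uM Fos was again lower, with 8.31, 8.38 and 8.31 in NTC and 7.39, 7.54 and 7.24 in the knockout, a log2FC of -0.95 ± 0.14 (adjusted p = 1.12e-05). Here 0 of 8 members were DEGs by limma, against 5.00% of all genes tested, and 3 of 8 had an unadjusted p below 0.05, against 38.4%, with a median of -0.36 against 0.00, and Fos alone passed. At 0.016 uM Fos was at 8.42, 8.13, 8.16 and 8.40 against 7.24, 7.64 and 7.50 (log2FC -0.81 ± 0.13, adjusted p = 2.72e-05). Dusp1 was at 0.47, -0.47, 0.34 and 0.31 against -2.78, -0.64 and -2.78, where 2 of 3 knockout libraries had no reads. It was the 1 DEG of 8 members, against 5.12% of all genes tested, with a median of -0.28 against 0.00. The Dusp1 log2FC of -2.23 ± 0.81 (adjusted p = 0.0351) was lost without NTC replicate 1 (-2.12, adjusted p = 0.0715), 3 (-2.17, 0.0668) or 4 (-2.18, 0.0632) or knockout replicate 1 (-1.87, 0.142) or 3 (-1.87, 0.134), with a range of 0.0150 to 0.142 and a count of 0 in each case. On a scale of log2(CPM + 1) Dusp1 had -0.80 (adjusted p = 0.0971). The knockout libraries without reads of it had 8.29 and 10.1 M reads in all, against 30.6 M in replicate 2. Jun, Junb, Egr1, Atf3, Ier2 and Zfp36 did not pass.

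At 0.4 uM Fos was at 8.21, 8.19, 8.28 and 8.20 in NTC and 7.73, 8.02 and 7.37 in the knockout, a log2FC of -0.51 ± 0.13 (adjusted p = 0.0109) that did not pass without knockout replicate 3 (-0.35, adjusted p = 0.0825, range 2.39e-06 to 0.133). Of 8 members 0 were DEGs by limma, against 1.78% of all genes tested, and 1 of 8 had an unadjusted p below 0.05, against 28.5%, with a median of 0.32 against 0.01. Without knockout replicate 2, the library that stood apart, the median was -0.14 against 0.03, the count of DEGs was again 0 and Fos had -0.67 (adjusted p = 0.00187). Jun, Junb, Egr1, Atf3, Ier2, Dusp1 and Zfp36 did not pass.

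The lines were last compared at 10 uM. Zfp36 was at 5.47, 5.52 and 5.55 log2 CPM in NTC and 2.95, 1.83, 2.98 and 2.68 in Adar1 KO macrophages. Atf3 was at 5.29, 4.99 and 5.69 against 3.64, 3.38, 3.02 and 3.20. Fos was at 7.00, 7.40 and 7.10 against 5.60, 6.02, 6.12 and 6.05. For these, and for Junb and Egr1, all 4 knockout libraries lay below all 3 NTC libraries, and the share of all genes that separate so was not counted. Of 8 members 2 were DEGs, both lower, against 3.14% of all genes tested, with a median of -1.06 against 0.00. Zfp36 fell by -2.90 ± 0.33 (adjusted p = 5.31e-08) and Atf3 by -2.01 ± 0.44 (adjusted p = 0.000441). Fos at -1.22 ± 0.13 (adjusted p = 3.18e-08), Egr1 at -0.89 ± 0.28 (adjusted p = 0.0101) and Junb at -1.47 ± 0.59 (adjusted p = 0.0432) passed the test for p alone, and Jun, Ier2 and Dusp1 did not pass. Atf3 was under the fold limit without NTC replicate 3 (-1.83, adjusted p = 0.00475) or knockout replicate 3 (-1.92, 0.00164) or 4 (-1.98, 0.00140), where the count was 1, with a range of 1.34e-08 to 0.00475. Egr1 did not pass without NTC replicate 3 (-0.62, adjusted p = 0.106, range 0.00272 to 0.106). Junb did not pass without any of the NTC replicates 1, 2 and 3 (0.0954, 0.0605 and 0.118) or without knockout replicate 1 or 2 (0.0752 and 0.126), with a range of 0.00311 to 0.126.

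The drug effect was then read within each line, as 10 uM against 0 uM. In NTC macrophages Fos went from 8.46, 8.41 and 8.55 to 7.00, 7.40 and 7.10. Fos, Egr1, Atf3 and Zfp36 were lower in every treated library, and the share of all genes that separate so was not counted. By limma 0 of 8 members were DEGs, against 0.834% of all genes tested, and 4 of 8 had an unadjusted p below 0.05, against 28.4%, with a median of -1.04 against 0.00. Fos fell by -1.31 ± 0.14 (adjusted p = 5.13e-07) and Egr1 by -1.73 ± 0.30 (adjusted p = 0.000337), both under the fold limit. Atf3 at -1.28 (adjusted p = 0.0653) and Zfp36 at -0.95 (adjusted p = 0.0679) did not pass, nor did Jun, Junb, Ier2 and Dusp1. Atf3 and Zfp36 did pass with quantile normalization (0.0409 and 0.0308), with library weights (5.49e-05 and 3.68e-06) and in a fit of these groups alone (0.00354 and 0.00106) and did not in the other 10 of 13 alternatives. Their main tests drew a common spread from all 33 baricitinib libraries, including knockout 0.4 uM replicate 2, which stood apart for both genes. The part of that library in these results was not tested.

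In Adar1 KO macrophages Zfp36 went from 6.19, 6.01 and 6.07 to 2.95, 1.83, 2.98 and 2.68, and Atf3 from 7.81, 7.38 and 7.33 to 3.64, 3.38, 3.02 and 3.20. Junb went from 4.43, 4.99 and 4.85 to 1.73, 1.09, 2.28 and 2.23, while Ier2 went from 3.43, 3.93 and 4.05 to 6.02, 4.18, 6.21 and 5.86. Treated libraries were lower without overlap for Fos, Junb, Egr1, Atf3 and Zfp36 and higher without overlap for Jun and Ier2. How many of all genes tested separate in this way was not counted. Of 8 members 3 were DEGs, each of them lower, against 14.7% of all genes tested, with a median of -1.32 against 0.05. Atf3 fell by -4.20 ± 0.44 (adjusted p = 3.13e-09), Zfp36 by -3.48 ± 0.33 (adjusted p = 4.75e-10) and Junb by -2.92 ± 0.59 (adjusted p = 8.96e-05). Fos at -1.61 ± 0.13 (adjusted p = 3.86e-11), Egr1 at -1.03 ± 0.28 (adjusted p = 0.00193), Jun at 0.82 ± 0.23 (adjusted p = 0.00229) and Ier2 at 1.76 ± 0.53 (adjusted p = 0.00513) passed the test for p alone. Without knockout 10 uM replicate 2 Ier2 was a DEG (2.22, adjusted p = 0.000635, range 0.000635 to 0.0289), and Dusp1 did not pass.

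The lines share no library, and the difference between their drug effects was tested directly, a test added after the values had been seen. Of 8 members 1 was higher and 2 were lower, against 7.11% of all genes tested, with a median of 0.19 against 0.06. Atf3 differed by -2.91 ± 0.64 (adjusted p = 0.000754) and Zfp36 by -2.53 ± 0.48 (adjusted p = 0.000169), both lowered more in the knockout. Ier2 differed the other way, by 2.28 ± 0.78 (adjusted p = 0.0223), and did not pass without NTC 0 uM replicate 1 (1.49, adjusted p = 0.107) or knockout 0 uM replicate 1 (2.09, 0.0574), with a range of 0.00545 to 0.107. That NTC library had 6.45 log2 CPM of Ier2 against 3.88 and 4.29 in the other NTC libraries without drug. Jun passed the test for p alone at 0.89 ± 0.33 (adjusted p = 0.0339) and was lost without any of 6 single libraries: NTC 0 uM replicate 1 (adjusted p = 0.123), NTC 10 uM replicate 2 (0.0983), knockout 0 uM replicate 1 (0.0746) or 2 (0.0510) and knockout 10 uM replicate 2 (0.0812) or 3 (0.0503), with a range of 0.0166 to 0.151. Fos, Junb, Egr1 and Dusp1 did not pass this test. Fosb had no reads in any of the 33 baricitinib libraries.

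**Figure D5:**
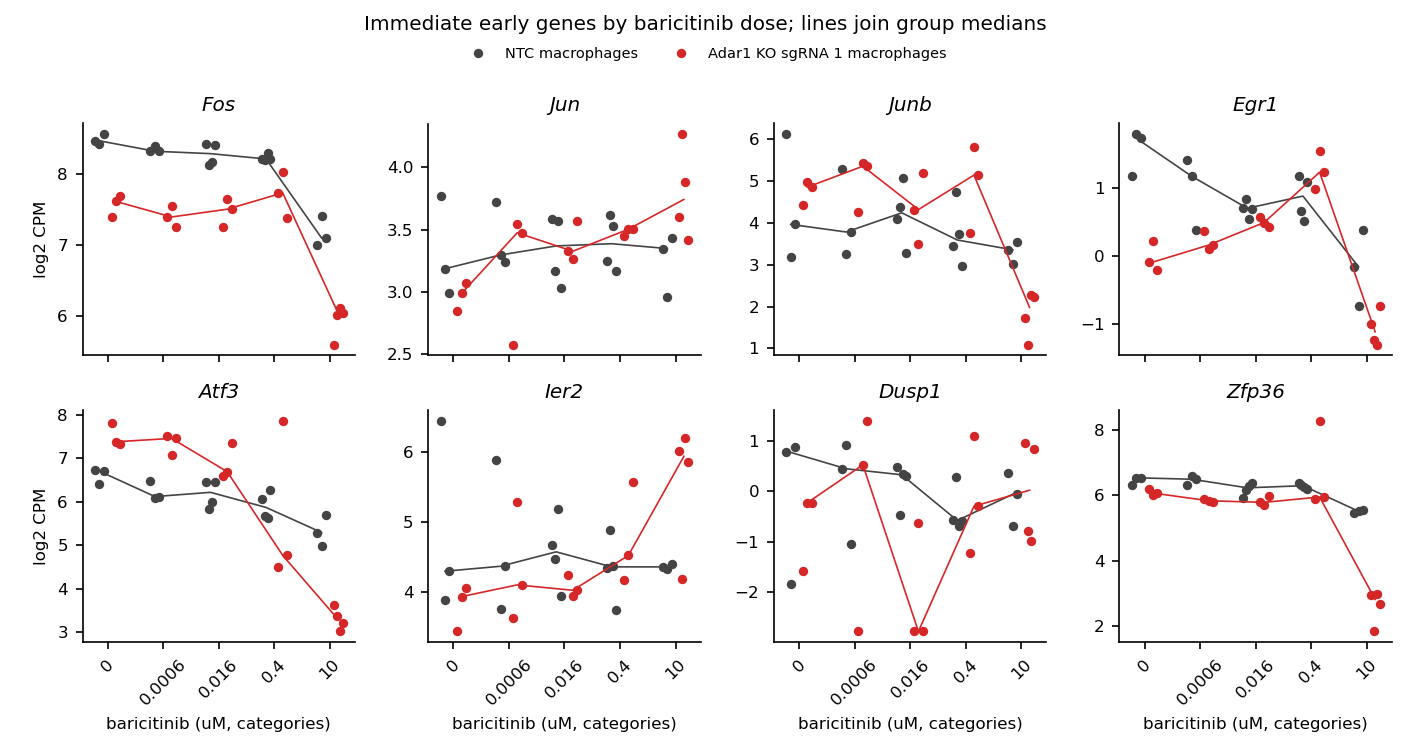
Level of members in log2 CPM (vertical axis) against baricitinib dose in uM (horizontal axis, doses as categories) in NTC and Adar1 KO sgRNA 1 macrophages (points are libraries and lines join group medians). Zfp36 in Adar1 KO macrophages is at 6.19, 6.01 and 6.07 without drug and at 2.98 or below in all 4 libraries at 10 uM.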

How the data were processed

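The authors counted reads with kallisto 0.46.0 on GRCm39 and deposited TMM-normalized log2 CPM made with edgeR. All 92 columns were used (0 left out), and of 29957 entries the 1 without a gene name was left out, leaving 29956. Columns were grouped by their lowest value into 6 sets, and comparisons stayed within a set. Genes that passed 1 CPM in 3 or more libraries (6 in the 27-library fit) were tested with limma 3.58.1 in R 4.3.3 on group means with a trended prior. Tests were two-sided, and p was adjusted by Benjamini-Hochberg over all genes tested. DEGs had an adjusted p below 0.05 and an absolute log2FC of 2 or more. Other steps used Python 3.11.15, numpy 2.4.6, pandas 2.3.3 and matplotlib 3.10.9. Depth was estimated from the step between 0 and 1 read.

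Members and lists were chosen with earlier results of these data known. The text names all 9 members, and from each related list the 2 largest DEGs in each direction in brain against culture, with the 10 genes closest to the members' mean z-score. Pairing by replicate number was checked by correlating deviations from group means, and called where r passed 0.1 in each of 3 or more pairs. It was 0.226 to 0.427 between ER-Hoxb8 progenitors and day 4 cells and 0.158 to 0.349 between NTC and Adar1 KO sgRNA 1 progenitors. No other compared groups met this. NTC and Adar1 KO sgRNA 1 macrophages had r of 0.153 and 0.158 but only 2 pairs. Promoters came from build GRCm38.p6.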

Additional observations from a re-analysis of the deposited data

Results flagged for a closer look

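Single libraries that stood apart in their group were sought with Dixon's ratio in 56 groups of values, where chance alone picks out about 1 in 20, and 7 were found. Jun was at 6.40 log2 CPM in BMD MLCs replicate 4 and at 6.16 in microglia replicate 7, where Dusp1 was at 2.74. Fos was at 8.14 in ER-Hoxb8 MLCs replicate 6, and Egr1 was low, at -0.42, in ER-Hoxb8 MLCs replicate 4. Atf3 was at 8.69 in Adar1 KO sgRNA 2 macrophages replicate 4, and Dusp1 at 0.28 in NTC macrophages with 0.4 uM baricitinib replicate 2.

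Effects that differed between groups were also listed. The shift of Atf3 from culture to brain differed by 3.03 between ER-Hoxb8 and BMD cells. The effect of 10 uM baricitinib differed between Adar1 KO and NTC macrophages by -2.91 for Atf3, -2.53 for Zfp36, 2.28 for Ier2 and 0.89 for Jun. The cause was not tested.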

How the results depend on the processing

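Of 89 gene results 53 kept their side of the limit on the adjusted p in every alternative and 0 were reversed, and of 1227 gene alternatives 1079 kept it, 116 were weaker and 32 stronger. Of 55 gene results that were DEGs, 30 met both limits in every alternative. Of 25 counts of DEGs among the members, 4 were equal throughout. Counts ran from 2 to 3 for microglia against BMD macrophages, from 3 to 4 for BMD MLCs against microglia, from 3 to 5 for Adar1 KO sgRNA 2 macrophages against progenitors and from 2 to 4 for the difference between baricitinib effects. Pseudocount 1 took 13 DEGs under the fold limit: Dusp5, Spry2, Gadd45b and Klf4 in all brain cells, Egr1 in BMD MLCs against either group, Hspa1a and Hspa1b between BMD MLCs and microglia, Dusp1 in ER-Hoxb8 MLCs against microglia, in sgRNA 2 macrophages against progenitors and in Adar1 KO against NTC at 0.016 uM, Jun in NTC macrophages against progenitors and Atf3 in Adar1 KO against NTC at 10 uM. Alternatives that leave out 3 brain libraries with high members, or replicate 1 of paired groups, the difference between baricitinib effects, and the results for Hspa1a and Hspa1b against microglia and for Ccl4 between the brain effects were added after the values had been seen. Single libraries were left out of groups of 2 to 5 libraries, and of brain groups microglia replicate 8 alone was left out singly. Without 1 of 2 NTC macrophage libraries that arm held 1 library. The cause of any shift was not tested. Group sizes of 2 to 9 libraries limit every result. Harvest days that the labels do not give, and the joint change of origin and handling against culture, limit those of brain cells. So does the joint change of cell origin, injection and host genotype between MLCs and microglia.

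In all brain groups against both cultured groups the count was 1. It was 2 with a fold limit of 1, with quantile normalization and without YSWT libraries, 3 with library weights and with WTHox libraries only, and 1 to 2 with single libraries left out. For BMD MLCs against BMD macrophages it was 3, with 1 with no filter on low values, 5 with library weights and 1 to 3 with single libraries left out. For ER-Hoxb8 MLCs against ER-Hoxb8 macrophages it was 1, with 2 with a fold limit of 1, library weights and WTHox libraries only, 0 with no filter on low values and GFPHox libraries only, and 0 to 1 with single libraries left out. For the ER-Hoxb8 brain effect minus the BMD brain effect it was 1, with 0 with no filter on low values, compared groups only, WTHox libraries only and the 3 brain libraries left out, 2 with quantile normalization and GFPHox libraries only, 3 with library weights, and 0 to 1 with single libraries left out. For ER-Hoxb8 MLCs against microglia it was 3, with 5 with a fold limit of 1, 1 with library weights and GFPHox libraries only, and 2 with pseudocount 1 and without YSWT libraries. For ER-Hoxb8 MLCs against BMD MLCs it was 2, with 1 with mean CPM above 5, and for ER-Hoxb8 against BMD macrophages it was 0, with 1 with library weights.

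For BM monocytes against BM progenitors the count was 0, with 1 with pseudocount 1 and mean CPM above 5, 2 with quantile normalization and compared groups only, 4 with library weights, and 0 to 2 with single libraries left out. For ER-Hoxb8 against BM progenitors it was 1, with 0 with compared groups only. For Adar1 KO sgRNA 1 against NTC macrophages it was 0, with 0 to 1 with single libraries left out. For NTC macrophages against progenitors it was 3, with 5 with a fold limit of 1 and 1 to 4 with single libraries left out. For Adar1 KO sgRNA 1 macrophages against progenitors it was 2, with 1 with mean CPM above 5, 4 with library weights and 2 to 3 with single libraries left out.

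For Adar1 KO against NTC the count was 0 at 0 uM baricitinib, with 1 with a fold limit of 1. At 0.016 uM it was 1, with 0 with pseudocount 1, mean CPM above 5, no filter on low values and quantile normalization, and 0 to 1 with single libraries left out. At 10 uM it was 2, with 4 with a fold limit of 1, 1 with pseudocount 1 and quantile normalization, and 1 to 2 with single libraries left out. For baricitinib 10 against 0 uM in NTC it was 0, with 2 with a fold limit of 1, and in Adar1 KO it was 3, with 6 with a fold limit of 1.

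With a replicate block the count was 0 for ER-Hoxb8 MLCs against ER-Hoxb8 macrophages, 1 for BM monocytes against BM progenitors and 0 for Adar1 KO against NTC at 0.016 uM baricitinib. Counts also went from 3 to 2 for BMD MLCs against BMD macrophages, from 3 to 4 for NTC macrophages against progenitors and from 2 to 3 for the same in Adar1 KO sgRNA 1. Of the members and named genes 10 results no longer passed with the replicate block (Egr2 and Klf4 in all brain cells, Egr1 in BMD MLCs, Atf3 and Ier2 in ER-Hoxb8 MLCs, Atf3 between the brain effects, Hspa1a between BMD MLCs and microglia, Ier2 in NTC macrophages, Dusp1 at 0.016 uM, Junb at 10 uM) and 7 came to pass (Egr1 between the brain effects, Zfp36 in all brain cells and in ER-Hoxb8 MLCs, Atf3 in monocytes and in Adar1 KO against NTC macrophages, Fos in Adar1 KO sgRNA 1 macrophages against progenitors, Jun at 10 uM). Zfp36 in NTC macrophages against progenitors rose past the fold limit. In the groups that replicate numbers paired, ER-Hoxb8 progenitors with day 4 cells and NTC with Adar1 KO sgRNA 1 progenitors, the count stayed at 0.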
